A study of Drosophila melanogaster with 2 samples.

Results

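The nuclear genes for the subunits of oxidative phosphorylation were examined for binding of Pipsqueak (Psq), a BTB-domain DNA-binding protein of Drosophila melanogaster known for binding GAGA-type repeats. They were chosen by symbol as the protein-coding genes that start with ND- (complex I), UQCR- (complex III), COX and a digit (complex IV) or ATPsyn (complex V, the ATP synthase). The choice gave 80 of the 13945 protein-coding genes on the main chromosome arms, with 40 in complex I, 9 in complex III, 16 in complex IV and 15 in complex V. Among them, 21 carry an L suffix, alone or with a number, and are paralogs of another subunit gene. The other 59 are called main members below. No assembly factor met the rule, so all 80 are named as subunits or subunit paralogs.

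Chromatin immunoprecipitation and sequencing was carried out on whole embryos aged 0 to 24 h, of both sexes pooled, from 1 transgenic line that stably expresses Psq with GFP fused to its C terminus. An antibody to GFP was used, and the chromatin had been sheared to 200 to 800 bp. There was 1 group of 2 biological replicates, numbered 3 and 4 by the labels, and both came from that line, so no condition could be compared with another. A peak in such a mixture of tissues and stages cannot be assigned to a cell type or an age, and the peak lists hold no expression values with which to check the tissue.

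Oxidative phosphorylation takes place in the inner mitochondrial membrane, where complexes I to IV pass electrons to oxygen. Complexes I, III and IV also move protons across the membrane, and the ATP synthase uses the proton gradient to make ATP. Most subunits are encoded in the nucleus and must be made in balance with those of the mitochondrial genome. In Drosophila many of these nuclear genes have duplicates, a number of which are known for expression in the testis.

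The authors deposited 4 peak lists on the dm6 assembly that were used here. Each replicate's list and the list from the pooled replicates had 30000 peaks and were relaxed, that is, they include background. A stricter list of 2999 peaks was derived with the irreproducible discovery rate (IDR), a measure of how well peak ranks repeat between replicates. The peak score is the caller's own statistic in arbitrary units and ranks peaks only within a list. It ran from 72.5 to 2011 in the IDR list, and the lowest pooled score was 18.1. At the members the IDR list acted as a limit on the pooled score, since every member summit at or above 72.5 was in it. A peak in that list can therefore rank low in a replicate, as did that of ATPsynE, at 7513 in replicate 4. No read numbers were given, so the depth of the libraries is unknown and no counting error can be set on a score. A gene was counted as having a summit when the highest point of a peak lay within 1000 bp of any of its annotated transcription start sites (TSSs).

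An IDR summit was found at 11 of the 80 members, or 13.8%, against 16.2% of all coding genes, so the share was near the background. With 1 group and members chosen by name, shares are set side by side and no test was made. The 11 were ND-ASHI, ND-42, ND-MWFE, ND-24, ND-51, ND-SGDH, COX5A, COX8, COX5B, ATPsynF and ATPsynE. No gene of complex III and no L paralog was among them. A pooled summit was found at 57 of the 80 members, or 71.2%, against 59.8% of all coding genes. The 57 were unevenly divided: 54 were main members, 91.5% of the 59, and 3 were L paralogs, 14.3% of the 21.

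DNA at 6 of the 11 IDR summits is shown to give the sequence that was precipitated next to these genes. They are the members whose IDR summit lay upstream of the gene on arms X, 2L, 3L and 3R, in order of score. Each window reaches up to 100 bp either side of the summit, less any annotated exon, and is written 5′ to 3′ on the strand of the member. Sequence came from the RefSeq dm6 assembly. Capitals mark exact matches, on either strand, to the core motif CGATA of the insulator protein BEAF or the TATA-box letters TATAAA. In the ND-SGDH window the matches on both strands overlap at one place.
ND-ASHI (chrX:6679280-6679480, minus strand): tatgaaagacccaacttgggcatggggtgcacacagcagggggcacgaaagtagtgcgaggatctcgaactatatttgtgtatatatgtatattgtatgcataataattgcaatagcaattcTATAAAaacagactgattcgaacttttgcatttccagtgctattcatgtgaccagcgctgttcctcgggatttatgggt
ND-42 (chr3R:22027481-22027606, plus strand): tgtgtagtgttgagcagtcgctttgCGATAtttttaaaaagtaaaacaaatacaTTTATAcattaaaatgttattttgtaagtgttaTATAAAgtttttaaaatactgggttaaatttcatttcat
COX8 (chr3L:21539448-21539631, minus strand): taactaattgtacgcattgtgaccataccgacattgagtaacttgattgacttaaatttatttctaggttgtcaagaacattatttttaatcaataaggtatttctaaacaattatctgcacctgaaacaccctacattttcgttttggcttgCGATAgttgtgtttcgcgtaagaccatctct
ND-51 (chr2L:6062780-6062980, minus strand): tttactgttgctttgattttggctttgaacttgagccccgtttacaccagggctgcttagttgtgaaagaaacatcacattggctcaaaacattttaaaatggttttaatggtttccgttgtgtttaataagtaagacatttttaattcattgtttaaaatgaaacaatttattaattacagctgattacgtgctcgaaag
ND-SGDH (chr3L:12138585-12138760, minus strand): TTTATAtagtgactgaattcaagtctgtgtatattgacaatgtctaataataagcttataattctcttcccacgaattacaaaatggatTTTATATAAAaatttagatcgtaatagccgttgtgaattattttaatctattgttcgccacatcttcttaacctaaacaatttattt
COX5B (chr2L:6557503-6557643, plus strand): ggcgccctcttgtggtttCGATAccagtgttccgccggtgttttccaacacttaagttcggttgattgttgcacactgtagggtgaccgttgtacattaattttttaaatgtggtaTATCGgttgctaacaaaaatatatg

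All 6 windows lack GAGAG, the core of the GAGA repeats known to be bound by Psq, on both strands. Of all 11 IDR summits the one with GAGAG within 100 bp, that of ATPsynF, is not among those shown, and 28.3% of the summits of coding genes had it. The ND-42 summit fell on the first base of a CGATA, and the ND-51 window held none of the motifs searched. The windows were rich in A and T. Over the full 201 bp at each of the 11 member summits, 66.2% of bases were A or T, against 62.3% at the 1549 summits that were the strongest IDR summit of any coding gene.

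Complex I oxidises NADH and is the entry point for most electrons, and the subunit roles given here are those of the mammalian complex. It held the 4 strongest peaks of all members. Of its 34 main members, 6 had an IDR summit, or 17.6%, against 16.2% of all coding genes. A pooled summit was found at 31 of the 34, or 91.2%, against 59.8%. None of its 6 L paralogs had either. ND-ASHI, an accessory subunit of the membrane arm, had the highest score of all members, 138, which ranked 953 in the list. Its peak at chrX:6679160-6679599 scored 72.3 in replicate 3 and 70.2 in replicate 4, and its summit lay 262 bp upstream of the TSS. That summit is also 260 bp from a TSS of Fum1, the gene of fumarase in the citric acid cycle, and falls in a Fum1 intron, so the peak cannot be assigned to either gene.

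ND-42, another accessory subunit, had a score of 131 and ranked 1054, with 59.9 in replicate 3 and 75.0 in replicate 4. Its peak at chr3R:22027286-22027725 had its summit 203 bp upstream of ND-42 and 26 bp from the TSS of Cchl, the gene of the lyase that attaches haem to cytochrome c. ND-MWFE, a small membrane-arm subunit, had a score of 129 and ranked 1077, with 55.8 in replicate 3 and 68.0 in replicate 4. Its peak spanned chr2R:13158245-13158684, and the summit was 201 bp upstream of ND-MWFE and 20 bp from the TSS of TppII, which encodes a tripeptidyl peptidase. In all 3 of these genes another gene's TSS was nearer to the summit than the member's own, and the peak ranked between 819 and 1359 in replicate 3 and between 973 and 1163 in replicate 4.

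ND-24 and ND-51 encode iron-sulphur and flavin-binding core subunits of the arm that takes electrons from NADH. ND-24 scored 114, with 53.1 in replicate 3 and 65.8 in replicate 4, and its summit was 114 bp downstream of the TSS in its own intron, nearer than the 156 bp to corolla. ND-51 scored 81.2, with 35.8 in replicate 3 and 45.6 in replicate 4, and its summit was 123 bp upstream, against 109 bp to CG13994. ND-SGDH, an accessory membrane-arm subunit, scored 75.6, with 39.1 in replicate 3 and 39.2 in replicate 4, at 76 bp upstream of its own TSS, which was the nearest. The last 2 of these peaks stood lower in both lists than those of the first 4 genes, with ranks of 3016 in replicate 3 and 2441 in replicate 4 at ND-51, and of 2541 in replicate 3 and 3165 in replicate 4 at ND-SGDH.

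Pooled scores in complex I ran down to 18.1, at the floor of the list. Their median over the 31 genes was 33.0, against 34.5 over the 5 of complex III, 49.5 over the 10 of complex IV and 48.6 over the 11 of complex V. Within complex I, ND-B17, a membrane-arm subunit, was the nearest below the IDR limit with 64.9 and had 30.5 in replicate 3 and 35.4 in replicate 4. Of the other core subunits, ND-23 scored 61.7, ND-75 43.1, ND-49 30.3, ND-30 26.5 and ND-20 23.4. The 3 main members with no pooled summit were ND-AGGG, ND-B14 and ND-B14.5A.

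Complex III passes electrons from ubiquinol to cytochrome c. Its 9 genes named UQCR- had no IDR summit, against 16.2% of coding genes. A pooled summit was found at 5 of the 9, or 55.6%, against 59.8%. Genes of the complex with other symbols did not meet the rule, and those looked at are given below. Among them, the cytochrome c1 paralog Cyt-c1L had an IDR summit. UQCR-Q, a small subunit, was the highest with a pooled score of 60.4, from 32.8 in replicate 3 and 25.8 in replicate 4. Its peak at chr3L:17475811-17476250 lay in an exon of the gene outside its coding sequence, 982 bp downstream of the TSS and 191 bp from the TSS of CG34250. UQCR-14 had 36.3, with 10.6 in replicate 3 and 22.8 in replicate 4, and its peak at chrX:16285214-16285653 had its summit 854 bp upstream, in an exon of eas. The paralog UQCR-6.4L had 34.5 at chr3L:16566058-16566497, in an intron of Mipp1, from 26.0 in replicate 3 and no overlapping peak in replicate 4. The strongest summits at these 3 genes were thus far from the TSS. Weaker pooled summits lay nearer, with 19.2 at 1 bp upstream of UQCR-14 and 20.7 at 200 bp downstream of UQCR-6.4L. The strongest summit of UQCR-C2, a core protein of the complex, scored 34.3 and lay 22 bp downstream. UQCR-C1, the other core protein, had no pooled summit, although each replicate's list had a weak one, of 12.6 in replicate 3 and 13.8 in replicate 4.

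Complex IV, cytochrome c oxidase, reduces oxygen. An IDR summit was found at 3 of its 8 main members, or 37.5%, against 16.2% of all coding genes. A pooled summit was found at all 8, against 59.8%, with a median pooled score of 60.4 over the 8. COX5A scored 98.0, with 39.9 in replicate 3 and 66.4 in replicate 4. Its peak at chr3R:11819241-11819680 had its summit 102 bp downstream of the COX5A TSS in an intron of that gene, and 41 bp from the TSS of glo, which encodes the RNA-binding protein Glorund. COX8 scored 81.6, with 41.8 in replicate 3 and 43.5 in replicate 4, at chr3L:21539311-21539750. Its summit was 84 bp upstream and nearest to COX8 itself, with VhaM9.7-b, a gene of the vacuolar proton pump, 331 bp away.

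COX5B scored 73.5, just above the limit, with 36.6 in replicate 3 and 36.4 in replicate 4. The peak at chr2L:6557323-6557762 had its summit 257 bp upstream of COX5B and 41 bp from the TSS of IFT52, a gene for transport along cilia. COX7B stood just below the limit with 68.4, from 35.6 in replicate 3 and 31.0 in replicate 4, and its summit was nearer to Sec3. Its replicate scores were close to those of COX5B, so the limit parted neighbours in score. The remaining main members had 52.3 at COX6B, 46.2 at COX7A, 26.7 at COX7C and 23.2 at COX4.

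In complex V, the ATP synthase, 2 of the 11 main members had an IDR summit, or 18.2%, against 16.2% of all coding genes. All 11 had a pooled one, against 59.8%. ATPsynF, a subunit of the membrane part, scored 91.6, with 31.2 in replicate 3 and 55.1 in replicate 4, and its peak at chr2R:24599663-24600102 had its summit 62 bp upstream of ATPsynF and 64 bp from CG3548. ATPsynE, another membrane subunit, scored 82.5 at chr3R:14326768-14327207, with its summit 41 bp downstream of its TSS, in an exon outside the coding sequence. The replicates stood apart at this peak, with 61.9 and rank 1109 in replicate 3, and 23.6 and rank 7513 in replicate 4. The TSS of Afti lay 299 bp from its summit. A second pooled summit of 59.8 lay 912 bp downstream of ATPsynE. The strongest replicate 4 summit within 1000 bp of the gene's TSSs scored 39.1. ATPsynB, of the peripheral stalk, fell just below the limit with 63.7 at chr3L:9729727-9730166, and its replicates also differed, with 17.1 and rank 10587 in replicate 3, and 46.5 and rank 2352 in replicate 4.

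The catalytic subunit gene ATPsynbeta had a pooled score of 53.4, ATPsynC of the membrane ring 48.2, ATPsynO of the stalk 43.0, and the rotor subunit gene ATPsyngamma 33.2. The strongest summits in complex V were close to the TSS. Their median distance was 52 bp, and 10 of the 11 were within 250 bp, the exception being ATPsynD at 809 bp upstream. A weaker pooled summit of 27.4 lay 55 bp downstream of ATPsynD. The median distance was 201 bp over the 31 genes of complex I, 597 bp over the 5 of complex III and 171 bp over the 10 of complex IV.

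**Figure D1:**
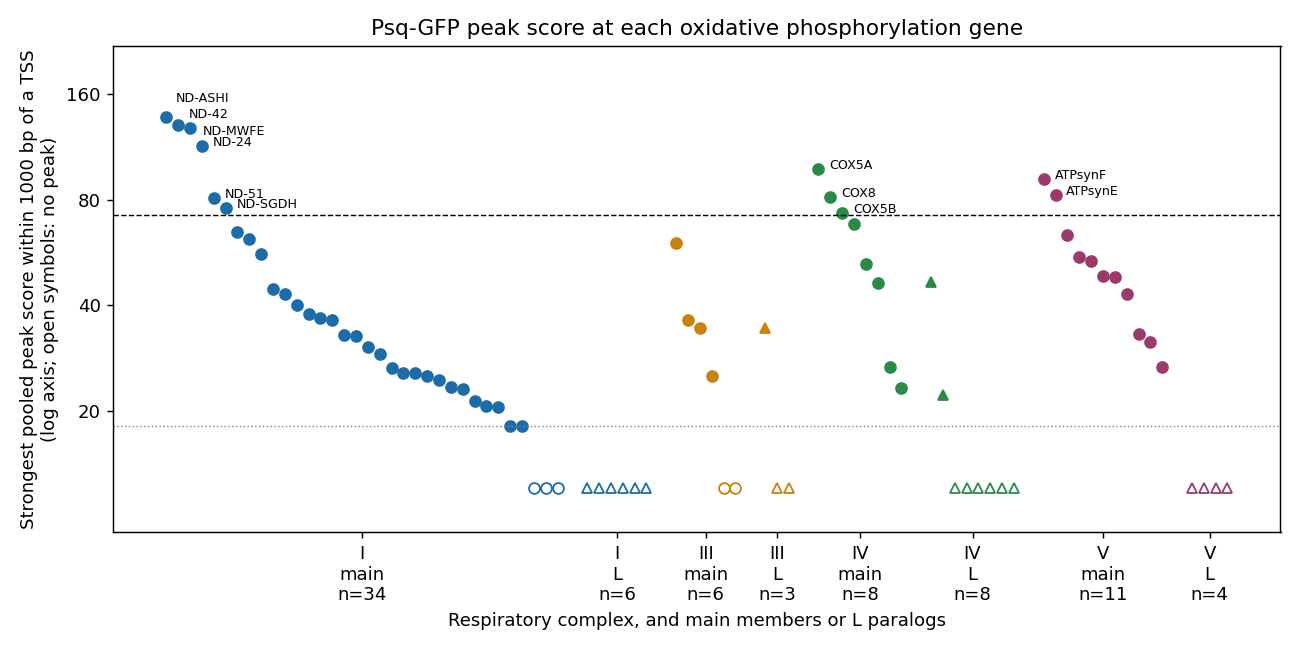
Highest pooled peak score within 1000 bp of a TSS for each of the 80 genes, on a log axis without units, by complex and by main members (circles) or L paralogs (triangles). Open symbols at the foot are genes with no pooled peak, the dashed line is the lowest IDR score of 72.5, and the dotted line is the lowest pooled score of 18.1. The 11 named genes lie above the dashed line, and 18 of the 21 L paralogs are open symbols.

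Scores at the members were moderate within these lists. The median IDR score of the 11 was 91.6, against 116 over the 2265 coding genes with an IDR summit, and ordered by score among those genes they took places from 846 for ND-ASHI to 2232 for COX5B. The median pooled score was 37.8 over the 57 members and 38.9 over the 54 main members, against 41.9 over the 8339 coding genes with a pooled summit. With −log10 q of at least 1 required, which is a q of 0.1, 29 members or 36.2% had a pooled summit, against 34.1% of coding genes. The main members made up 28 of the 29, 47.5% of their number, and the L paralogs 1, or 4.76%. At this level the share over the 80 was near the background, and the division between main members and L paralogs was still seen.

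**Figure D2:**
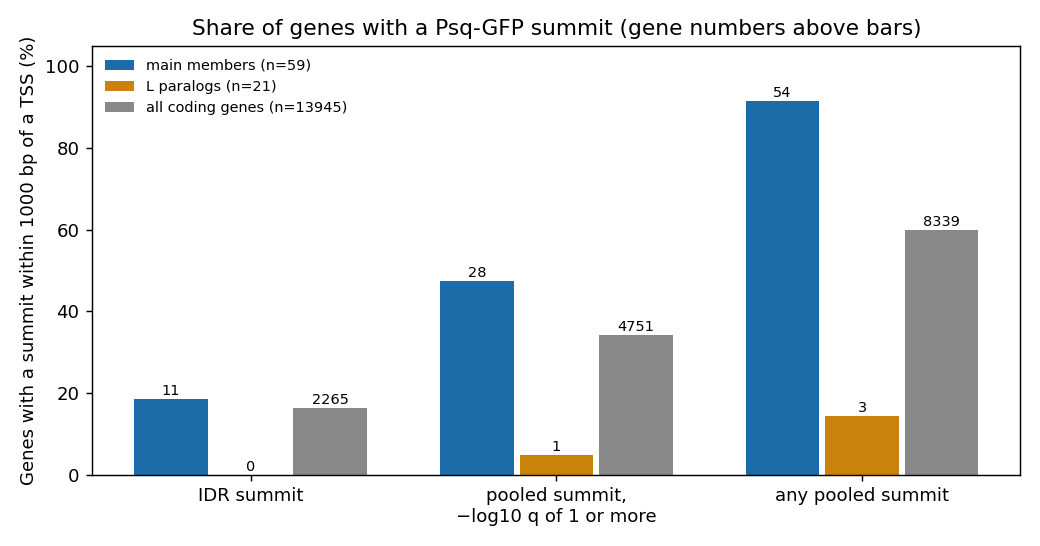
Share of genes, in percent, with a summit within 1000 bp of a TSS among main members, L paralogs and all coding genes, for IDR summits, pooled summits with −log10 q of 1 or more, and all pooled summits. Numbers above the bars are genes; 54 of 59 main members had a pooled summit, against 3 of 21 L paralogs and 8339 of 13945 coding genes.

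Each L paralog was set beside its stem gene, matched by name in 17 pairs. In 4 pairs the stem is named otherwise and was assigned after seeing the data, with levy for COX6AL and COX6AL2, cype for COX6CL and sun for ATPsynepsilonL. In 16 of the 21 pairs the stem gene had a pooled summit and the paralog had none, in 3 both had one, in 2 neither did, and in 0 pairs did the paralog alone have one. Over the 17 pairs matched by name these counts were 12, 3, 2 and 0. Where both had one, the pooled score was 46.7 at COX7AL2 against 46.2 at COX7A, 34.5 at UQCR-6.4L against 25.1 at UQCR-6.4, and 22.2 at COX4L against 23.2 at COX4. The peaks at all 3 paralogs had an overlapping peak in just 1 of the replicates. Among pairs that are neighbours, COX5BL lies 122 bp from COX5B and had no pooled summit, while COX5B had an IDR summit. COX7CL lies 281 bp from COX7C and COX7AL 2625 bp from COX7A, and in both pairs the stem gene alone had a pooled summit. Some stems serve more than 1 paralog, since 18 stem genes make up the 21 pairs.

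The paralogs also have fewer annotated TSSs, with a mean of 1.14 per gene, against 1.61 for main members, and a gene with more TSSs has more chances of a nearby summit. Among genes with 1 TSS, a pooled summit was found at 23 of 27 main members, or 85.2%, and at 2 of 19 L paralogs, or 10.5%, against 52.1% of coding genes. Main members with 2 TSSs had one in 27 of 28 cases, against 76.7% of such coding genes. Of the 23 members without a pooled summit, 18 had none in any of the 4 lists, 16 of them L paralogs and 2 main members, ND-B14 and UQCR-11. That is 22.5% of the 80 members, against 29.6% of coding genes, and 76.2% of the L paralogs. Summits in both replicate lists but not in the pooled list were seen at ND-AGGG, ND-B14.5A and UQCR-C1.

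Many main members share their promoter region with a neighbour on the other strand. A coding TSS pointing the other way lay within 1000 bp upstream in 39 of 59 main members, or 66.1%, and in 3 of 21 L paralogs, or 14.3%, against 36.2% of coding genes. All 11 members with an IDR summit were among the 39. That is 28.2% of them, against 28.9% of the coding genes with such a neighbour, so main members had about the share of other genes of that arrangement. None of the 20 main members without such a neighbour had an IDR summit, against 9.05% of those coding genes. Pooled summits were found at 38 of the 39 with a neighbour, or 97.4%, against 79.7%, and at 16 of the 20 without, or 80%, against 48.5%. Of the 18 L paralogs without one, 3 had a pooled summit, or 16.7%. In both arrangements the share of main members with a pooled summit was above the background, and among genes without a neighbour that of L paralogs was below it.

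At all 11 members a TSS of another coding gene lay within 1000 bp of the IDR summit, against 1416 of the 2265 coding genes, or 62.5%. The member's own TSS was the nearest in 5 of 11, or 45.5%, against 1568 of 2265, or 69.2%. With a summit counted just for the gene of the nearest coding TSS, 6.25% of members had one, against 11.5% of coding genes. Over the 57 strongest pooled summits another gene was nearer in 19, or 33.3%, against 25.2% of 8339. Besides those named above, these were spn-E at ND-23, CG1632 at ND-75, CG10151 at ND-B15, Msp300 at ND-13A, Secp43 at ND-B8, pcm at ND-18, msl-2 at ND-PDSW, toc at ND-B14.5B, Arl2 at COX7A, Sec13 at ATPsynCF6 and cdi at ATPsynD. Binding to one gene of such a pair and binding to the other cannot be told apart from these lists.

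Most summits lay upstream of the gene. Of the 57 strongest pooled summits 42 were upstream of the nearest own TSS, or 73.7%, against 71.7% for coding genes, and of the 11 IDR summits 8 were. The median distance without regard to direction was 159 bp for the members, against 211 bp for coding genes, and 61.4% of the member summits lay within 250 bp, against 55.3%. The strongest summits of the 3 paralogs lay 472 to 663 bp away, so none was in that range. Weaker pooled summits were, with 45.0 at 237 bp downstream of a COX7AL2 TSS and 20.7 at 200 bp downstream of UQCR-6.4L.

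**Figure D3:**
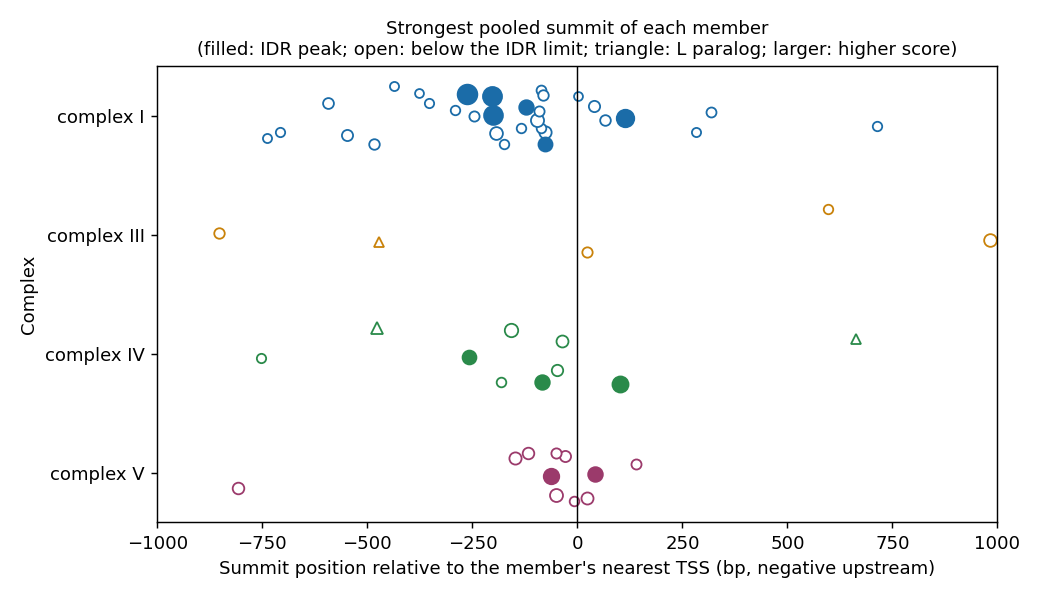
Position in bp of each member's strongest pooled summit from its nearest TSS, negative upstream, by complex; filled symbols are IDR peaks, triangles L paralogs, and larger symbols higher scores. Heights within a row are random. Summits of complex V cluster at the TSS with a median distance of 52 bp, and those of complex III are spread with a median of 597 bp.

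Replicate agreement at the members was like that at other genes in how often a peak recurred, and lower in rank order. A peak overlapping the pooled peak by at least 1 bp was in both replicate lists for 41 of 57 members, or 71.9%, against 74.2% of coding genes. It was in 1 list for 15 members and in neither for 1, ND-B12, whose score was 20.5. Over those 41 the scores of replicates 3 and 4 had a Spearman correlation of 0.636 and the summits were a median of 71 bp apart. Over the 6185 coding genes with both, the correlation was 0.785 and the distance 51 bp. These are correlations across genes, which share the libraries and are not independent replicates, and the members lack the highest scores, with 138 as their highest, against 2011 in the list. All 11 IDR peaks had a peak in each replicate, and 6 of the 11 were within the strongest 2999 of each list. The 5 that were not were ATPsynE, COX5B and ND-SGDH in replicate 4, and ATPsynF and ND-51 in replicate 3. The like shares over all IDR peaks were not counted, so these counts have no background to be read against.

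**Figure D4:**
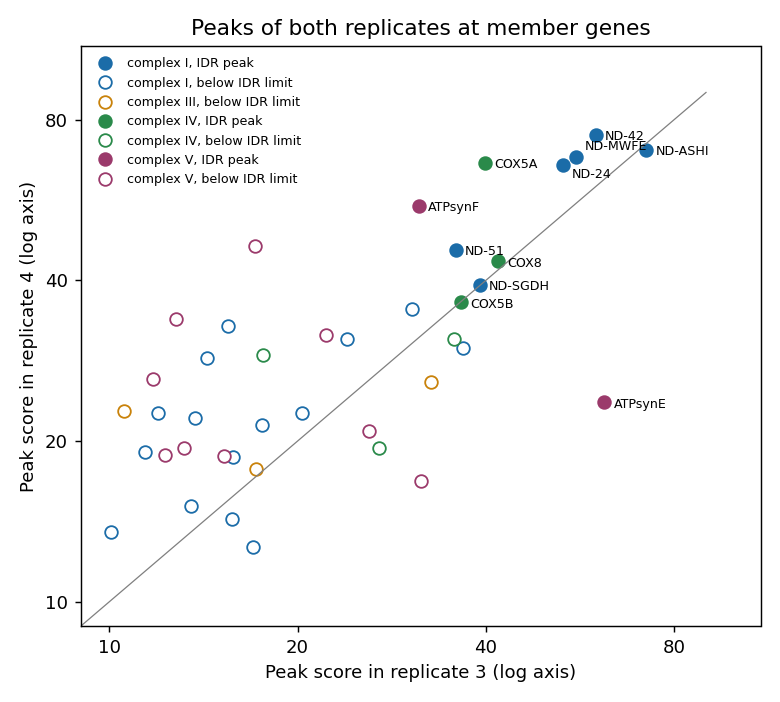
Scores of the overlapping peak in replicate 3 (horizontal, log axis, no units) and in replicate 4 (vertical, log axis, no units) for the 41 members with both, coloured by complex; filled symbols are the 11 with an IDR peak, and the line marks equal scores, although each list has its own scale. ND-ASHI and ND-42 lie at the upper right, and ATPsynE lies far below the line with 61.9 and 23.6.

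Genes outside the rule were looked at from a list of 39 symbols, of which 37 matched the annotation. The list mixes respiratory chain and ATP synthase genes of other names with genes of complex IV assembly, regulation, mitochondrial DNA and the citric acid cycle. Of these 9 had an IDR summit, or 24.3% against 16.2% of coding genes, and 31 a pooled one, or 83.8% against 59.8%. Among 16 respiratory chain and ATP synthase genes, 4 had an IDR summit, or 25%. They were blw, the alpha subunit of the ATP synthase, with a score of 175, the testis cytochrome c gene Cyt-c-d with 154, the cytochrome c1 paralog Cyt-c1L with 81.7 and the complex IV gene cype with 75.0. So, unlike the L paralogs that met the rule, the paralog Cyt-c1L had an IDR summit. Its pooled score of 81.7 was above the 47.2 of Cyt-c1. SdhBL likewise had 67.8, against 23.3 at SdhB, and Cyt-c-d had 154, against 33.2 at Cyt-c-p. The other way, SdhA had 62.2 and SdhAL had no pooled summit. The strongest summits of SdhBL, Cyt-c1 and SdhA were nearer to TSSs of Flacc, Klp64D and cer. The division between main members and L paralogs thus did not extend to all of these genes. Among 10 citric acid cycle genes 4 had one: Idh3g with 200, Fum1 with 138 at the peak it shares with ND-ASHI, mAcon1 with 75.2 and Ogdh with 74.3. Of 7 regulators and mitochondrial DNA factors 1 did, mtSSB, the mitochondrial single-stranded DNA-binding protein, with 127, and of 4 complex IV assembly genes 0 did. At Cyt-c-d, cype and mAcon1 the IDR summit was nearer to a TSS of CG31808, Ncoa6, and CG43345 and CG43346. Those peaks cannot be assigned to either gene. Among regulators of respiratory genes, ewg had a pooled score of 30.4, Ets97D had 22.4, and srl had no pooled summit.

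Promoter sequences, taken from 250 bp before to 50 bp after each gene start, were searched on both strands for exact motifs. GAGAG was present in 10 of 59 main members, or 16.9%, and in 7 of 21 L paralogs, or 33.3%, against 29.7% of all coding genes. The longer GAGAGAG, which contains it, was in 0 of the 59 and 1 of the 21, against 5.87%. The core GGTCACAC, bound by the promoter factor M1BP, was in 23.7% of main members and 4.76% of L paralogs, against 7.7% of coding genes. The DRE TATCGATA, bound by DREF, was in 15.3% of main members and 0% of L paralogs, against 9.36%. TATAAA was in 62.7% of main members and 28.6% of L paralogs, against 45.8%, and CGATA, which lies within the DRE, in 55.9% and 33.3%, against 47.4%. A or T made up 65.2% of bases in main member promoters and 63.8% in L paralogs, against 60.9%, and the part of base composition in these shares was not tested. The E-box CACGTG was in 3.39% of main members and 9.52% of L paralogs, against 4.2%. Neither the NRF-1 core GCGCATGC nor the nuclear respiratory gene element matched any of the 80, against 1.05% and 0.158% of coding genes. With 500 bp on either side of the gene start, the nuclear respiratory gene element matched 2 of the 80, or 2.5%, against 0.602%.

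Within 100 bp of the summits, GAGAG was found at 1 of the 11 IDR summits, that of ATPsynF, against 28.3% of the 1549 summits of coding genes. At the 57 pooled summits it was found at 11, or 19.3%, against 23.3% of 6322. CGATA was found at 6 of the 11 IDR summits, against 35.4%, and TATAAA at 5, against 32.1%. The DRE was found at 1, ATPsynE, against 5.29%. These matches are descriptions of the letters in the windows, and 11 summits are too few to set a share precisely.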

How the data were processed

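Psq-GFP ChIP-seq peak lists of whole Drosophila embryos (2 biological replicates, 1 group) were used. Relaxed peaks were called by the authors on each replicate and on the pool, against a control not analysed here, and an IDR list was derived from them, per the notes deposited beside the lists. For the IDR threshold, the peak caller and the aligner, names and values were not given in the sources used here. Scores of peaks are the deposited values of the seventh column, on a scale of their own in each list. The deposited −log10 q, in the ninth column, is capped, and all 2999 IDR peaks were at the maximum of 3.87. The summit is the deposited offset in the last column, another number, added to the peak start; 97.8% of pooled peaks were 440 bp wide. Lists on the older assembly dm3 were not used.

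Genes and TSSs came from Ensembl release 115 on dm6, and sequence from the RefSeq copy of the same assembly. Counting used Python 3.11.15 with scipy 1.17.1, and was tested on simulated peak lists with known answers. Each member's strongest summit within 1000 bp of a TSS was taken, and replicate peaks overlapped it by at least 1 bp. The members and the lists were chosen with earlier results of these data known. Named genes were all members with an IDR summit, the 3 with the highest pooled score in each complex, the 3 next below the limit, and genes whose TSS was nearer to a member summit. Other members and neighbours were named after their values were seen, and the L class of 4 paralogs of genes named otherwise was set then too. Of the 39 symbols listed outside the rule, 2 (Sco1 and skap) matched no gene. No test was made.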

Additional observations from a re-analysis of the deposited data

How the results depend on the processing

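The count of members with an IDR summit, 11, was 11 with a window of 500 bp (13.8% of members against 14.1% of coding genes). It was 17 with 2000 bp (21.2% against 20%), and 4 with the stronger 50% of IDR peaks (5% against 9.05%). It was 5 when a gene was counted only if it had the nearest coding TSS (6.25% against 11.5%). The 2999 strongest peaks of a single replicate gave 9 without replicate 3 (11.2% against 16%). They gave 10 without replicate 4 (12.5% against 15.8%). The count was 11 with 1 TSS per gene (13.8% against 14.7%) and 13 with the gene body included (16.2% against 20.7%). The share lay further below the background than first given (13.8% against 16.2%), except with 500 bp, 2000 bp or 1 TSS per gene. A peak in both replicates at all 11 became 6 of 11 with the strongest 2999 of each list, with no background share counted. For L paralogs with a pooled summit, the count of 3 became 9 of 21 at 2000 bp, an alternative chosen after seeing the data. Main members had 55 of 59 there, and 69.3% of coding genes had one. By construction a wider window takes in more summits and a stricter list fewer. Leaving out a replicate gave 55 to 56 of the 80 members with a pooled summit, against 58.8% to 59.6% of coding genes. Among them were 52 main members and 3 to 4 L paralogs. The median IDR score was 82.5 to 97.3 and the median signed distance −84 to −83 bp over the alternatives. With 500 bp on either side of the gene start, GAGAG was in 63.8% of members against 66.7% of coding genes. CGATA was in 78.8% against 78.8% there, and TATAAA in 77.5% against 74.5%. The nuclear respiratory gene element was in 2 members there, 2.5% against 0.602%. With any TSS of the gene used, it was in 1, 1.25% against 0.194%. Its share thus moved from below the background (0% against 0.158%) to above it, on at most 2 genes. The NRF-1 core stayed at 0 of the 80 in both settings. No paired analysis was possible because there was 1 group. The unknown depth of the libraries leaves the precision of scores unknown.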
